A study of Mus musculus with 12 samples.

Results

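RNA of tumour-specific CD8 T cells was compared between mice given anti-CTLA-4 and mice given anti-PD-1 DANA. Each antibody had been compared with the same isotype arm in a deposited table, so the 2 tables were joined on the gene identifier and the second log2 fold change was subtracted from the first, which removes the shared isotype level. All genes with a log2 fold change in both tables were taken, 17833 of the 48709 listed. The comparison concerns 6 of the 12 libraries of the series, 3 per antibody, and the other 6 come from the isotype arm and from the combination of both antibodies. In what follows, D is this log2 difference, positive where the transcript was higher after anti-CTLA-4 and negative where it was higher after anti-PD-1 DANA.

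All mice were wild type C57BL/6, aged post natal day 91, and carried TRAMP-C2, a transplantable line derived from a mouse prostate tumour. The isotype arm received a control antibody, the anti-CTLA-4 arm an antibody to CTLA-4, and the anti-PD-1 DANA arm an antibody to PD-1 whose Fc part carries the DANA mutation, which removes binding to Fc receptors. Doses fell on days 3, 6 and 9 by the sample labels and on days 3, 6 and 8 by the series text. Live CD45+CD3+CD8+ cells that were Spas-1+ and Spas-2-, that is, T cells recognising the tumour antigen Spas-1, were sorted on day 28 from draining lymph nodes. That day is counted after treatment in the sample labels and after tumour injection in the series text. Sorted cells of 5 mice were combined for every arm, and 3 libraries were made from the resulting pool, from 0.25 ng RNA each and with 21 preamplification cycles. The 3 libraries of an arm are therefore divisions of one pool, p-values measure only the spread between such divisions, and an effect of the antibody and a feature of its pool cannot be told apart.

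CTLA-4 competes with the costimulatory receptor CD28 for its ligands on antigen-presenting cells and is also carried by regulatory T cells, which antibodies with an active Fc part can deplete. PD-1 is induced on T cells by antigen and, once bound by its ligands, restrains signalling through the T cell receptor and CD28. Blocking either receptor can restore effector functions of CD8 T cells, among them the granzymes and perforin that kill target cells, cytokines such as interferon-gamma, and activation-induced receptors such as OX40.

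The tables hold group means in RPKM (read counts scaled by exon length and by library size) and no library values, so the library sizes and, for part of the genes, the whole reads of each library were recovered from the steps between low means. Recovered depth ran from 14729713 to 29583827 reads in the anti-CTLA-4 libraries, from 24233466 to 31943900 in those of anti-PD-1 DANA and from 23973359 to 32867235 in isotype. Libraries are named a, b and c in order of rising depth, which is not tied to the replicate numbers of the labels. Reads per library were obtained for 5219 genes of the anti-CTLA-4 arm, 4985 of the anti-PD-1 DANA arm and 3010 of both. At least 1 library held 0 reads for 52.1% of these genes in the anti-CTLA-4 arm and for 52.4% in the anti-PD-1 DANA arm. The sorted identity was visible in both arms: all 15 CD8 T cell markers were measured, and their RPKM summed to 4144 after anti-CTLA-4 and 4447 after anti-PD-1 DANA. Cd8a, a chain of the CD8 coreceptor, had means of 138 and 147 RPKM, with D = -0.23 ± 0.43 (SE).

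The 15 CD8 T cell markers had a median D of -0.20, with none past a test. The named genes with the largest D were held at few reads by 1 arm, where D is a fitted value. Tnfrsf4, a costimulatory receptor gene, and Lag3, an inhibitory receptor gene, were higher after anti-PD-1 DANA by D of -8.30 ± 2.01 and -6.10 ± 1.46 (SE). Ciita, the activator gene of MHC class II, was higher after anti-CTLA-4, by 8.19 ± 2.03 (SE). Of 23 B cell markers, 22 had higher values after anti-CTLA-4, with a median D of 1.73 and none past a test. Which differences passed depended on how the error of D was obtained, and none did in the test planned first.

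The first error was derived from the p-values in the authors' deposited tables, with an upper bound where the variances of the 3 group means could not be separated. With it, a Wald test with Benjamini-Hochberg adjustment over all listed genes called 0 of the 17833 genes (0%). The smallest adjusted p was 0.054, and 1152 genes had an unadjusted p under 0.05, 540 of them higher after anti-CTLA-4. Limma on the recovered libraries called 0 of 3010 genes, with 29 at an unadjusted p under 0.05. Genes without recovered reads in both arms, Lag3 and Ciita among them, were not in that set and could not be called by it. The smallest adjusted p of limma was 0.998. Tnfrsf4 had that value too, with 1, 1 and 2 reads after anti-CTLA-4 and 330, 445 and 907 after anti-PD-1 DANA. The 0 calls by limma are therefore no sign that the arms were alike. A second error, chosen after these results had been seen, came from a negative binomial model with 1 dispersion per gene fitted to the deposited p-values, and it covered 16195 genes, the other 1638 keeping the upper bound. With this model error 7 genes passed over all listed genes, which is 0.0393% of those tested. Adjusting over the tested genes alone gave 120 genes, or 0.673%, of which 66 were higher after anti-CTLA-4 and 54 higher after anti-PD-1 DANA. On simulated data the tests with either error called more unchanged genes than an adjusted threshold of 0.05 allows, so these calls and adjusted p-values are less strict than they read. Every p and adjusted p below comes from the model error unless stated otherwise, and an adjusted p is over the tested genes unless all listed genes are named.

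Of the 7 genes that passed over all listed genes, 3 were higher after anti-CTLA-4 and 4 higher after anti-PD-1 DANA. Wbp1, a gene for a WW-domain binding protein on chromosome 6 (83119044 to 83121559, GRCm38), had 690, 78 and 1206 reads in the anti-CTLA-4 libraries a, b and c, and all 3 were well above the 3.45 reads estimated in total for anti-PD-1 DANA. Its D was 9.40 ± 1.85 (SE), with an adjusted p over all listed genes of 0.00937. Lrrc47, which encodes a leucine-rich repeat protein on chromosome 4 (154011731 to 154021513), stood at the other end, with a mean of 9.91 RPKM after anti-PD-1 DANA and an estimated 1.402 reads in the whole anti-CTLA-4 arm. Where an arm held so few reads, D is a fitted value and its size is no bound on the difference. Its D was -10.74 ± 2.10 (SE), with an adjusted p over all listed genes of 0.00937.

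The other 5 genes were Pip4k2c, a phosphatidylinositol phosphate kinase gene, and the zinc finger gene Zfp874a, both higher after anti-CTLA-4, and Tmem55b, Ttc21b and Mib2, all higher after anti-PD-1 DANA. Tmem55b, which encodes a lysosomal membrane protein, had a D of -7.67 ± 1.59 (SE). Pip4k2c had a D of 7.51 ± 1.63 (SE). Adjusted over the tested genes, the first error also called Tmem55b and Pip4k2c, with adjusted p of 0.0198 and 0.0293. Cd83 was called in that way too. It encodes a glycoprotein of activated dendritic cells and lymphocytes. D was 7.45 ± 1.67 (SE) with the first error, and the adjusted p was 0.0473. In both Pip4k2c and Cd83 the lower arm held few reads, 15.7 and 10.96 estimated, against 2384 and 1593 in the anti-CTLA-4 arm.

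Further genes with a small p in the first test passed with the model error over tested genes alone. Zkscan17, a zinc finger gene, and Rnmt, which encodes the methyltransferase of the mRNA cap, were higher after anti-CTLA-4, with D of 7.45 ± 1.798 and 5.93 ± 1.52 (SE). Wdhd1, a gene of DNA replication, was higher after anti-PD-1 DANA, with a D of -6.81 ± 1.76 (SE). Their adjusted p ran from 0.0264 (Zkscan17) to 0.0387 (Wdhd1).

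**Figure D1:**
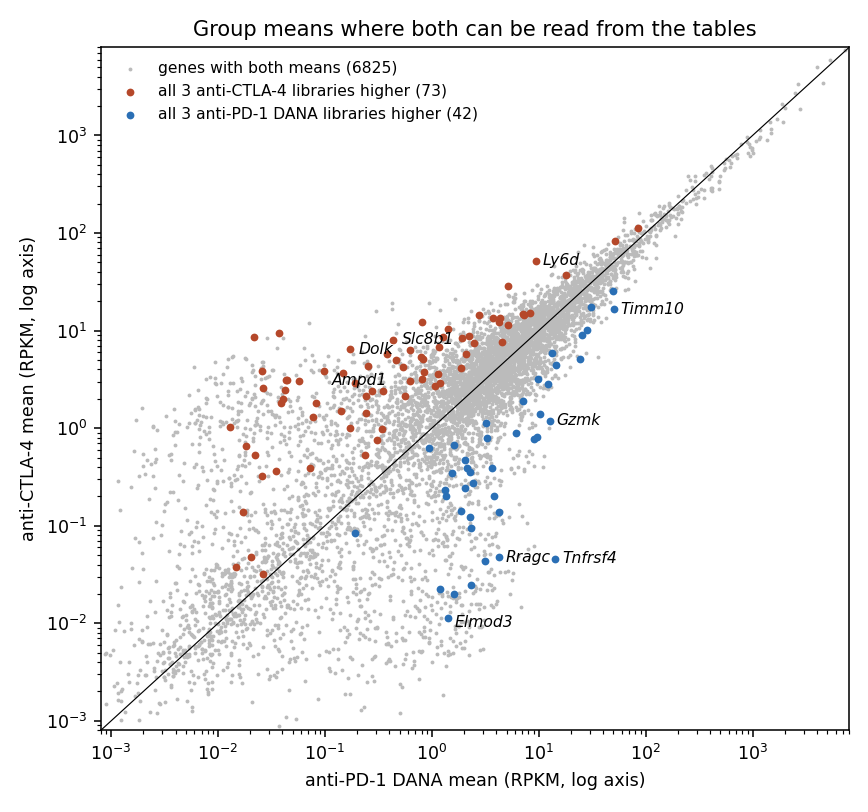
Mean RPKM of the anti-CTLA-4 arm against that of the anti-PD-1 DANA arm on log axes, 1 point per gene, for the 6825 genes whose deposited means belong to both antibody arms. Coloured points are the 73 genes whose 3 anti-CTLA-4 libraries were all higher and the 42 whose 3 anti-PD-1 DANA libraries were all higher, and the scatter narrows towards high means.

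Levels themselves could be set side by side for the 6825 genes whose mean exceeded that of isotype in both antibody arms, since each deposited table gives the larger of its 2 means. Their median log2 ratio, anti-CTLA-4 over anti-PD-1 DANA, was 0.09, and 53.5% of the ratios were above 0. The 10th and 90th percentiles were -2.06 and 2.30. Among the 1944 genes with both means at 5 RPKM or more, the same percentiles were -0.61 and 0.76. Of all 6825 genes, 970 lay more than 8-fold apart, and of those 1944 genes 0 did. Asking for 5 RPKM in both arms itself removes genes that were low in 1 arm. The narrower percentiles and the 0 therefore do not show that abundant transcripts were alike. The median D of all tested genes was -0.08 on the authors' scale and 0.05 on a scale of plain library size, so single values of that size carry no direction.

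Of these 6825 genes, the 3010 with recovered reads for each of the 6 libraries, zeros included, allowed the libraries to be compared directly. All 3 anti-CTLA-4 libraries lay above all 3 anti-PD-1 DANA libraries in RPKM for 73 genes (2.43%), and the reverse held for 42 (1.4%). With the authors' scaling in place of library size, the counts were 62 and 55. Of the 115 genes without overlap, 35 had an unadjusted p under 0.05 and 3 passed, among them Tnfrsf4 and Rragc. An exact permutation test of 3 libraries against 3 cannot give a p below 0.1. Arms that did not differ would leave up to that share of genes without overlap, in 1 direction or the other. The 115 of 3010 genes do not exceed it, so missing overlap alone is no sign of a difference. The genes of this comparison named next were chosen after their values had been seen, except Tnfrsf4 and Gzmk.

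Tnfrsf4 encodes OX40, a costimulatory receptor of the TNF receptor family that T cells display after activation. The gene lies on chromosome 4 (156013843 to 156016612). The anti-PD-1 DANA libraries a, b and c held 330, 445 and 907 reads, or 9.98, 12.2 and 20.8 RPKM. The anti-CTLA-4 libraries held 1, 1 and 2 reads. Every anti-PD-1 DANA library was high and every anti-CTLA-4 library was close to 0, so the arms did not overlap. D was -8.30 ± 2.01 (SE), with an adjusted p of 0.0270, and 0.0738 over all listed genes. With the first error, which assumes equal variances for this gene, the SE was 3.08 and Tnfrsf4 was not called (adjusted p = 0.513).

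Gzmk, which encodes the serine protease granzyme K of cytotoxic granules, lies on chromosome 13 (113171608 to 113225908). It had 637, 346 and 437 reads after anti-PD-1 DANA, or 18.9, 9.30 and 9.85 RPKM. After anti-CTLA-4 it had 0, 92 and 4 reads, or 0, 3.47 and 0.097 RPKM. The anti-PD-1 DANA libraries were alike and all above the highest anti-CTLA-4 library, while the anti-CTLA-4 libraries differed widely among themselves. D was -3.58 ± 1.89 (SE) and did not pass (adjusted p = 0.380).

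Rragc encodes RagC, a small GTPase that brings the growth kinase complex mTORC1 to the lysosome. It had 798, 74 and 233 reads after anti-PD-1 DANA and 5, 0 and 4 after anti-CTLA-4. The arms did not overlap, although the 3 anti-PD-1 DANA libraries spread from 0.827 to 9.86 RPKM. D was -6.65 ± 1.77 (SE), with an adjusted p of 0.0441. Aldh1b1, a mitochondrial aldehyde dehydrogenase gene, was steadier, with 272, 279 and 235 reads after anti-PD-1 DANA against 0, 17 and 2. Its D of -5.05 ± 1.93 (SE) had an adjusted p of 0.130 and did not pass. Elmod3 had 181, 124 and 99 reads against 1, 1 and 0, and Tmem69 had 67, 222 and 108 against 0, 1 and 3. In these last 2 genes every anti-PD-1 DANA library held far more reads than any anti-CTLA-4 library, and both missed the threshold, with adjusted p of 0.0582 and 0.0688.

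Among genes higher in each anti-CTLA-4 library, Ampd1, the gene of an AMP deaminase of the purine nucleotide cycle, had 239, 162 and 484 reads after anti-CTLA-4 and 18, 7 and 1 after anti-PD-1 DANA. Dolk, the dolichol kinase gene needed for protein glycosylation, had 186, 423 and 180 against 23, 1 and 3. Both had non-overlapping libraries at levels of a few RPKM, and neither passed, with adjusted p of 0.130 for Ampd1 and 0.0857 for Dolk.

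Genes of mitochondrial proteins stood on both sides of the comparison, Aldh1b1 above being one that was higher in each anti-PD-1 DANA library. Of those higher in each anti-CTLA-4 library, Pcca, a subunit of propionyl-CoA carboxylase, had 360, 90 and 586 reads against 2, 11 and 6, with D = 6.01 ± 1.83 (SE). Slc8b1, a sodium and calcium exchanger of the inner mitochondrial membrane, had 273, 824 and 650 reads against 0, 121 and 0, so 1 anti-PD-1 DANA library was not near 0. Uqcr10, a subunit of respiratory complex III, had 967, 1380 and 1758 reads against 935, 1498 and 1692. Its arms did not overlap in RPKM, at 102 to 124 against 66.1 to 95.8, yet they lay close and D was 0.28 ± 1.09 (SE). None of the 3 passed.

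**Figure D2:**
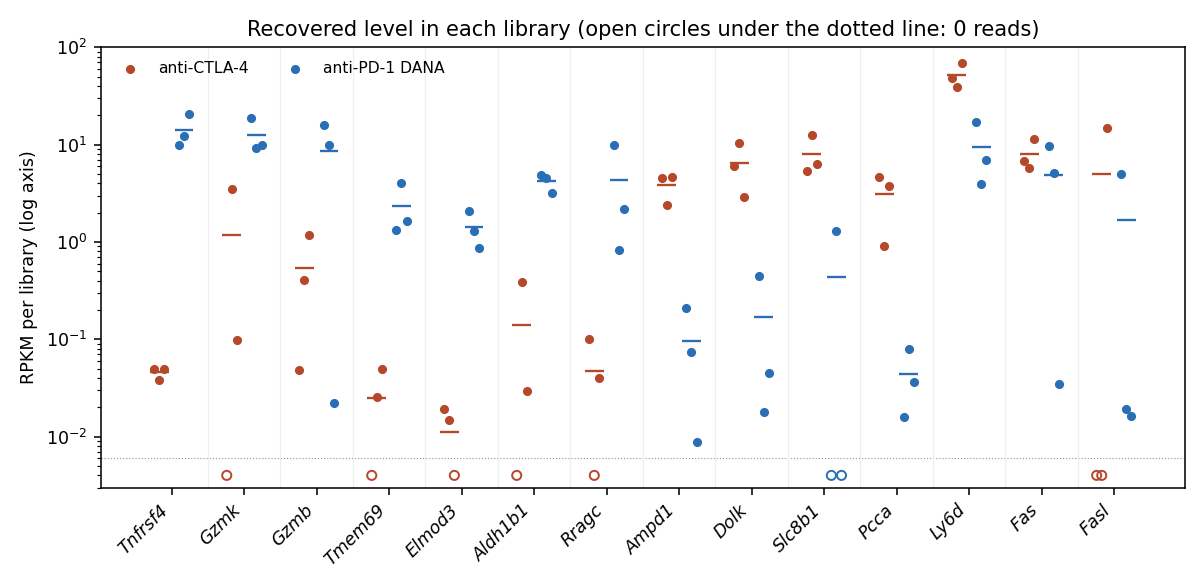
RPKM of each recovered library on a log axis for 14 genes, anti-CTLA-4 and anti-PD-1 DANA side by side, with bars at the arm means and open circles where a library held 0 reads. Tnfrsf4 and Rragc show arms that do not overlap, Gzmb and Fas each have 1 anti-PD-1 DANA library close to 0, and Fasl rests on 1 library in each arm.

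Several differences rested on a single library. A library was said to carry a gene where it gave 80% or more of the summed RPKM of its arm, which held for 49.6% of the 3010 genes in the anti-CTLA-4 arm and 47.9% in the anti-PD-1 DANA arm. Of the 895 genes with reads that were higher after anti-CTLA-4 at an unadjusted p under 0.05, 77.9% rested on 1 library, against 47.5% of the other 4324. After anti-PD-1 DANA the shares were 81.0% of 966 genes and 49.0% of the other 4019. Among the 120 genes that passed, 66 had reads in their higher arm and 15 of these (22.7%) rested on 1 library. Ubox5, a ubiquitin ligase gene that passed, is an example, with 1, 2 and 2138 reads in the anti-CTLA-4 libraries (adjusted p = 0.0307).

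**Figure D3:**
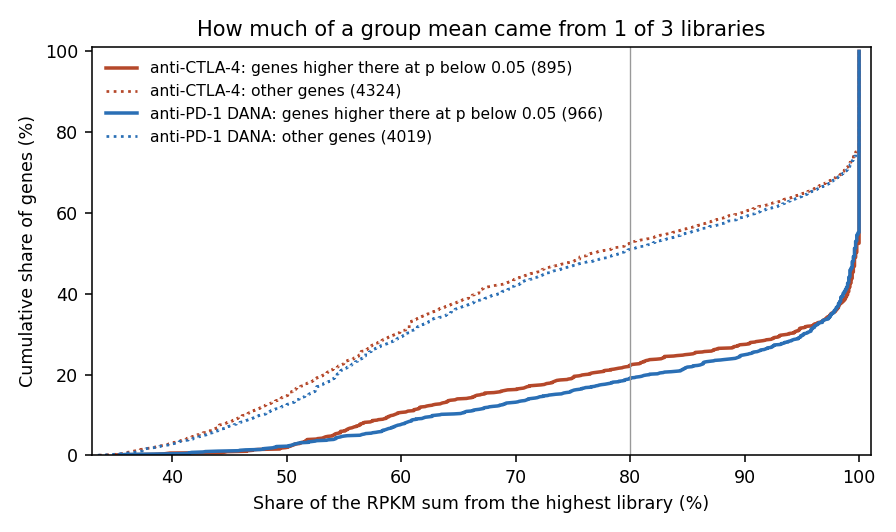
Cumulative share of genes against the percentage of an arm's summed RPKM that came from its largest library, drawn for genes higher in that arm at an unadjusted p under 0.05 and for the other genes with reads, with a vertical line at 80%. The curves of the higher genes lie to the right, with 77.9% and 81.0% of them past the line against 47.5% and 49.0% of the others.

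Receptors that mark activated or restrained T cells were read next, beginning with the targets of the antibodies. Ctla4 had 65, 3 and 393 reads after anti-PD-1 DANA, and library c gave 81.5% of its summed RPKM there, so it rested on 1 library. D was -1.87 ± 2.10 (SE) and did not pass. Pdcd1, the gene of PD-1, was estimated at 13.6 RPKM after anti-CTLA-4 and 11.7 RPKM after anti-PD-1 DANA. Its D of 0.08 ± 1.47 (SE) has an error larger than its size.

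Lag3 encodes an inhibitory receptor that binds MHC class II, on chromosome 6 (124904361 to 124911705). It was estimated at 0.163 RPKM after anti-CTLA-4 and 10.2 RPKM after anti-PD-1 DANA, from 21.6 and 1786 estimated reads. D was -6.10 ± 1.46 (SE) with an adjusted p of 0.0250, and 0.0684 over all listed genes. Its reads per library were not recovered. With the first error the adjusted p was 0.0760, which does not pass.

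Lag3 was the one inhibitory receptor gene of 16 tested that passed. At an unadjusted p under 0.05 (a background of 6.87% of tested genes higher after anti-CTLA-4 and 7.64% higher after anti-PD-1 DANA), 4 of the 16 were higher after anti-PD-1 DANA and 2 higher after anti-CTLA-4. The 4 were Lag3, Cd101, Havcr2 and Cd200r1, and the 2 were Lair1 and Ceacam1. Havcr2, the gene of TIM-3, had 267, 0 and 345 reads after anti-PD-1 DANA, so 2 libraries were high and 1 had none, and D was -10.54 ± 3.29 (SE). The 10 other genes, among them Tigit, Btla, Cd160 and Cd96, had D from -1.87 to 0.97. The list's median D was -0.05, beside -0.08 for all tested genes, and on the scale of library size it was 0.09.

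Among 17 costimulatory receptors and ligands, Tnfrsf4 alone passed. Tnfrsf18, which encodes GITR and is the chromosomal neighbour of Tnfrsf4, was estimated at 12.9 RPKM after anti-CTLA-4 and 41.3 RPKM after anti-PD-1 DANA, with D = -1.82 ± 1.202 (SE). Tnfrsf9, the gene of 4-1BB, was estimated at 2.06 and 7.22 RPKM, with D = -1.94 ± 1.84 (SE). Neither passed, with adjusted p of 0.635 and 0.947. Cd28, Icos and Cd27 had D of -1.26, -0.20 and 0.13, with SE of 1.18, 1.26 and 0.54. At an unadjusted p under 0.05, 1 of the 17 was higher after anti-CTLA-4 (Pdcd1lg2) and 1 higher after anti-PD-1 DANA (Tnfrsf4). The background was 6.87% and 7.64% of all tested genes. Pdcd1lg2 had D = 7.92 ± 2.87 (SE) and an adjusted p of 0.109. The median over the list was -0.21, with 7 of 17 above 0.

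The cytotoxic genes of largest level had D of smaller size than the scarcer granzymes, and none of them passed. Nkg7 and Ctsw, abundant granule transcripts, had D of -0.20 ± 0.39 and -0.34 ± 0.49 (SE). Ccl5, a chemokine of effector cells, was estimated at 285 RPKM after anti-CTLA-4 and 483 RPKM after anti-PD-1 DANA, with D = -0.90 ± 0.45 (SE) and an unadjusted p of 0.0456. Prf1, the gene of the pore-forming protein perforin, had means of 12.8 and 33.1 RPKM, with D = -1.50 ± 1.31 (SE).

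Gzmb, the gene of granzyme B, had 547, 374 and 1 reads after anti-PD-1 DANA and 1, 11 and 49 after anti-CTLA-4. The arms overlapped, since the deepest anti-PD-1 DANA library held 1 read. D was -4.04 ± 2.09 (SE), with an unadjusted p of 0.0535. Gzma, the gene of granzyme A, had 0, 0 and 325 reads after anti-PD-1 DANA, so 1 library held all of its reads, and D was -9.46 ± 3.29 (SE) with an adjusted p of 0.0930. Of 23 effector and cytotoxic genes tested, 0 passed, and with the first error none of the 23 was called either. At an unadjusted p under 0.05, 2 were higher after anti-PD-1 DANA (Gzma and Ccl5) and 0 after anti-CTLA-4. The shares over all tested genes were 7.64% and 6.87%, so 2 of 23 lay near the background. The median D was -0.34, with 10 of 23 above 0.

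Transcription factors of effector cells showed no gene that passed among 18. Tbx21, the gene of T-bet, had means of 16.6 and 10.03 RPKM and D = 0.62 ± 1.46 (SE). Prdm1, which encodes BLIMP1, had D = -8.06 ± 2.26 (SE) and just missed the threshold (adjusted p = 0.0518). Maf had D = -4.41 ± 1.86 (SE). The list's median was -0.08, the same as that of all genes.

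Interferon-gamma and its receptor, which the series title names, did not pass. Ifng was estimated at 7.28 RPKM after anti-CTLA-4 and 4.23 RPKM after anti-PD-1 DANA, with D = 0.65 ± 1.86 (SE). Ifngr1, the ligand-binding chain of the receptor, had means of 50.7 and 26.4 RPKM and D = 0.80 ± 0.89 (SE). Ifngr2, the signalling chain, had D = -0.47 ± 1.87 (SE). Downstream of the receptor, Jak1 and Irf1 had D of 0.15 ± 0.51 and 0.21 ± 0.55 (SE). Of the 20 genes of the pathway list, 10 were above 0, the median was -0.01, and 1, Ciita, passed.

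Of 45 death receptor, caspase and survival genes, 0 passed with the model error and 0 were called with the first error. Fas, the death receptor, had 182, 200 and 611 reads after anti-CTLA-4, or 6.86, 5.82 and 11.5 RPKM. After anti-PD-1 DANA it had 424, 244 and 2 reads, or 9.72, 5.06 and 0.035 RPKM. The anti-CTLA-4 libraries were alike, 2 anti-PD-1 DANA libraries were at their level and 1 was near 0, so the arms overlapped. D was 0.60 ± 1.83 (SE). Fasl, its ligand, had 0, 0 and 853 reads after anti-CTLA-4 and 235, 1 and 1 after anti-PD-1 DANA, so 1 library carried nearly all reads in each arm. D was 1.53 ± 2.27 (SE).

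Bcl2, which encodes a protein that protects lymphocytes from apoptosis, was estimated at 22.5 and 18.6 RPKM, with a D of 0.14 ± 0.48 (SE). Pmaip1, the gene of the pro-apoptotic protein NOXA, came nearest to passing among the 45 genes of the list, at D = 8.33 ± 2.35 (SE) and an adjusted p of 0.0533. Across the list 5 genes were higher after anti-CTLA-4 at an unadjusted p under 0.05 and 4 higher after anti-PD-1 DANA, beside 6.87% and 7.64% of all tested genes, and the median D was 0.10.

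**Figure D4:**
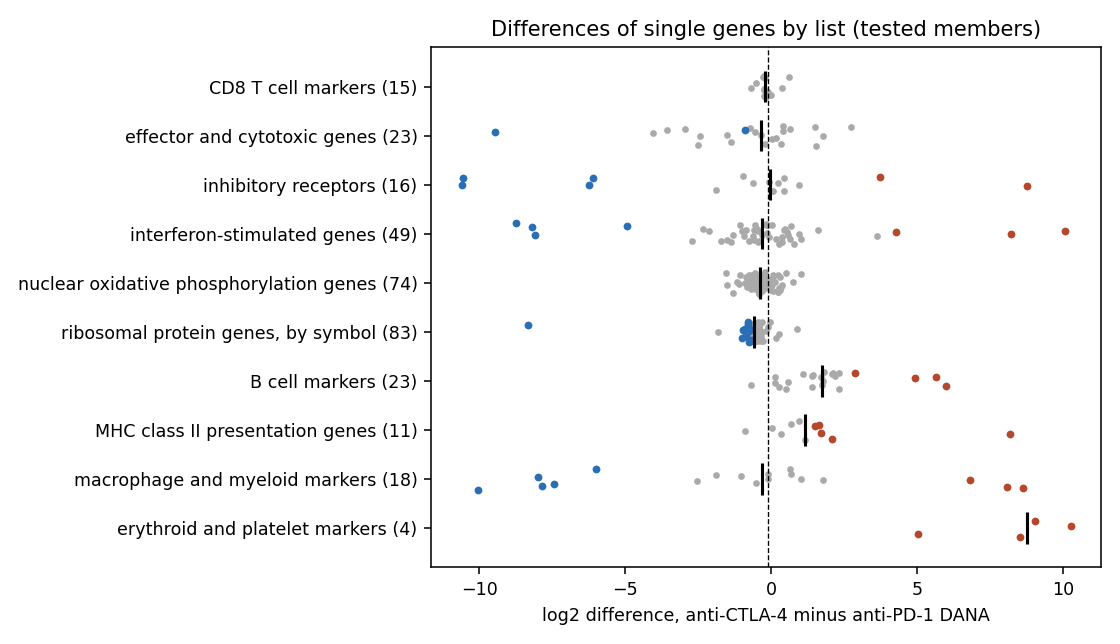
D of each gene in 10 gene lists, with points coloured where the unadjusted p with the model error was under 0.05, a black bar at each list's median and a dashed line at the median of all tested genes (-0.08). The B cell and MHC class II lists lie to the anti-CTLA-4 side with medians of 1.73 and 1.17, and the CD8 T cell markers are gathered close to 0.

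Genes of MHC class II presentation and of B cells had mostly higher values after anti-CTLA-4, and 1 of them passed. Ciita, which encodes the master activator of MHC class II transcription on chromosome 16 (10488178 to 10527564), had a mean of 4.26 RPKM after anti-CTLA-4 and an estimated 0.0133 RPKM after anti-PD-1 DANA. D was 8.19 ± 2.03 (SE), with an adjusted p of 0.0307 and, with the first error, of 0.123. The class II invariant chain gene Cd74 was estimated at 374 and 119 RPKM. Its D of 1.51 ± 0.46 (SE) had an adjusted p of 0.0666. The chain genes H2-Ab1, H2-Aa and H2-Eb1 had D of 1.65 ± 0.58, 1.71 ± 0.76 and 2.08 ± 0.80 (SE). Of the 11 genes of the list, 10 were above 0 and 5 were higher at an unadjusted p under 0.05, among which Ciita passed. Of all tested genes, 6.87% were higher after anti-CTLA-4 at that p and 7.64% higher after anti-PD-1 DANA. The median was 1.17, and the summed RPKM was 992 after anti-CTLA-4, 373 after anti-PD-1 DANA and 464 in isotype.

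B cell markers lay on the same side: 22 of 23 had a positive D, with a median of 1.73, and 0 passed. The B cell transcription factor Spib was estimated at 15.9 and 0.290 RPKM, with D = 5.64 ± 1.59 (SE) and an adjusted p of 0.0533. Blnk, an adaptor of B cell receptor signalling, had D = 6.00 ± 1.79 (SE), and Ighd, the constant region of IgD, D = 2.89 ± 1.31 (SE). Together with Cr2 these were the 4 genes of 23 at an unadjusted p under 0.05, all higher after anti-CTLA-4, beside 6.87% of all tested genes. The defining markers Ms4a1 and Cd79a had D of 2.35 ± 1.62 and 1.39 ± 1.31 (SE), and neither was at 0 in either arm. Summed B cell marker RPKM was 864 after anti-CTLA-4, 441 after anti-PD-1 DANA and 359 in isotype.

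Ly6d, a surface marker of B lineage cells, is a B cell marker whose reads were recovered in all 6 libraries. It had 530, 550 and 1512 reads after anti-CTLA-4, or 48.4, 38.7 and 68.7 RPKM. After anti-PD-1 DANA it had 311, 79 and 167 reads, or 17.3, 3.97 and 7.03 RPKM. The 3 anti-CTLA-4 libraries all lay above the highest anti-PD-1 DANA library. D was 2.34 ± 1.66 (SE) and did not pass.

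Immunoglobulin segments, chosen by symbol after the values had been seen, had a median D of 3.49 over 107 tested, with 76 above 0. At an unadjusted p under 0.05, 50 were higher after anti-CTLA-4 and 10 higher after anti-PD-1 DANA, beside 6.87% and 7.64% of all tested genes. Igkv8-30, a kappa variable segment, had 16, 94 and 132 reads after anti-CTLA-4 and 1, 0 and 0 after anti-PD-1 DANA. Of the 19 segments with reads in both arms, 4 had all anti-CTLA-4 libraries above all anti-PD-1 DANA libraries and 0 the reverse, beside 2.43% and 1.4% of all genes compared in this way. Among these 4, Igkv1-110 had 1, 1 and 135 reads after anti-CTLA-4 and 0, 0 and 1 after anti-PD-1 DANA, so it rested on 1 library. Variable segments resemble one another, so reads can be divided between them by the counting.

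The sort gate was for CD3+CD8+ cells, and in bulk RNA a larger number of cells of another type and more RNA per cell cannot be told apart. Whether other cells in the pools contributed to the MHC class II, B cell and immunoglobulin differences was not tested. CD8 T cell markers, given beside them, had a median D of -0.20, with 2 of 15 above 0 and 0 at an unadjusted p under 0.05.

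Markers of further cell types were spread over both arms. Hba-a2, a haemoglobin alpha chain gene, was higher after anti-CTLA-4 and had 72, 109 and 533 reads there, all 3 libraries being positive, with D = 9.04 ± 2.28 (SE) and an adjusted p of 0.0332. The erythroid and platelet list summed to 20.2 RPKM after anti-CTLA-4, 0.0708 after anti-PD-1 DANA and 0.308 in isotype, with 4 of its 10 genes tested. Csf1r, the receptor of macrophage growth factor, was higher after anti-PD-1 DANA, with D = -10.03 ± 2.28 (SE) and an adjusted p of 0.0221. C1qa and Fcer1g also had a negative D, at -7.97 and -7.84, whereas the macrophage genes Marco and Vcam1 had a D of 8.65 and 8.08, none of these 4 passing. Genes named like C1qa lay the other way. C1qb had means of 7.26 RPKM after anti-CTLA-4 and 3.50 after anti-PD-1 DANA, and C1qc of 5.75 and 1.55. Over 18 myeloid markers tested, 7 had a positive D and 11 a negative D. Of the 18, 3 were higher after anti-CTLA-4 and 5 higher after anti-PD-1 DANA at an unadjusted p under 0.05. The background was 6.87% and 7.64% of all tested genes, and the summed myeloid RPKM was 316 and 326. Dendritic cell markers had a median D of 2.37, with 7 of 11 above 0. Of these 11, 3 were higher after anti-CTLA-4 and 1 higher after anti-PD-1 DANA at that p, beside the same background. Their summed RPKM, most of it from Bst2, stood at 78.3 after anti-CTLA-4 and 98.8 after anti-PD-1 DANA, and summed NK cell markers at 36.3 and 40.2.

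Cd4, the coreceptor gene of helper and regulatory T cells, had 132, 401 and 0 reads after anti-CTLA-4, so 2 of the libraries were positive. D was 8.18 ± 2.21 (SE), with an adjusted p of 0.0451. Tnfrsf4, which is also on the list of CD4 and regulatory T cell markers, differed in the opposite direction. Foxp3, the defining transcription factor of regulatory T cells, had D = 2.39 ± 2.42 (SE). Il2ra, a receptor chain they carry, had 60, 0 and 1 reads after anti-CTLA-4 and 59, 1 and 2 after anti-PD-1 DANA. It rested on 1 library in each arm, and its D was 0.50 ± 2.19 (SE). The list summed to 30.7 and 31.1 RPKM.

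T cell receptor segments had values of D in both directions. Over 207 tested the median D was -0.22, and 15 were higher after anti-CTLA-4 and 23 higher after anti-PD-1 DANA at an unadjusted p under 0.05, with 6.87% and 7.64% as background. Of the 99 segments with reads in both arms, 3 had all anti-CTLA-4 libraries higher and 4 all anti-PD-1 DANA libraries higher, where the shares over all genes were 2.43% and 1.4%. Among these 3, Trav12d-2 and Trav12n-2 had nearly the same reads after anti-CTLA-4, at 99, 117 and 211 and at 102, 108 and 205. The joining segment Traj16 had 38, 32 and 55 reads after anti-PD-1 DANA and 0, 0 and 28 after anti-CTLA-4. Trav9-4, a variable segment, had 170, 384 and 387 reads after anti-PD-1 DANA and 0, 104 and 197 after anti-CTLA-4. In both, a part of the anti-CTLA-4 libraries had no reads. The anti-PD-1 DANA libraries ran from 19.6 to 28.2 RPKM for Traj16 and from 17.8 to 36.3 RPKM for Trav9-4. The lowest of them for Trav9-4 lay just above the 16.9 RPKM of anti-CTLA-4 library c. Trbj2-4 had 58, 70 and 136 reads after anti-CTLA-4 and 63, 69 and 75 after anti-PD-1 DANA, which is 74.8 to 93.8 RPKM against 47.9 to 53.1.

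Naive and recirculation genes, which keep T cells circulating through lymph nodes, did not separate the arms. Of 25 tested, 0 passed and 0 had an unadjusted p under 0.05, and with the first error none was called either. Ccr7, Il7r and Tcf7 had D of -0.47 ± 0.57, -0.12 ± 0.52 and 0.16 ± 0.52 (SE). The 29 genes for T cell receptor chains and proximal signalling proteins likewise had 0 at an unadjusted p under 0.05, with D from -1.21 to 1.73 and a median of 0.07. Cd3e, a chain of the complex, had means of 190 and 134 RPKM, with D = 0.36 ± 0.50 (SE).

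Immediate early genes, which are switched on within minutes of receptor signalling, had a median D of 0.45, with 17 of 29 above 0. Dusp2, a phosphatase gene that limits MAP kinase signalling, was estimated at 117 RPKM after anti-CTLA-4 and 42.4 RPKM after anti-PD-1 DANA. Its D of 1.33 ± 0.58 (SE) had an unadjusted p of 0.0230 and an adjusted p of 0.214. Fos, Jun and Myc had D of 0.85 ± 1.11, 1.01 ± 1.04 and 0.91 ± 1.08 (SE), while Egr1 and Egr2 had D of -1.20 ± 1.27 and -0.60 ± 1.63 (SE). None of the 29 genes passed.

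Heat shock and unfolded protein response genes included 1 that passed of 29. Hspa1a, the gene of an inducible HSP70 chaperone, on chromosome 17 (34969190 to 34972156), was estimated at 0.0832 RPKM after anti-CTLA-4 and 9.39 RPKM after anti-PD-1 DANA. D was -6.95 ± 1.65 (SE), with an adjusted p of 0.0250 and, with the first error, of 0.0760. Hspa1a has a nearly identical neighbouring copy, so reads of the pair can be divided between the copies by the counting and its own level is uncertain. The list's median D was 0.15.

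Interferon-stimulated genes, many of which act against viruses, reached an unadjusted p under 0.05 at shares near those of all genes. Of 49 tested, 3 were higher after anti-CTLA-4 at an unadjusted p under 0.05 (Rsad2, Mx2 and Oas3) and 4 higher after anti-PD-1 DANA (Ifit3, Ifit3b, Oasl1 and Oasl2), beside the background of 6.87% and 7.64%. Ifit3 was estimated at 0.393 and 10.9 RPKM, with D = -4.93 ± 1.81 (SE), and Oas3 at 9.68 and 0.446 RPKM, with D = 4.30 ± 1.53 (SE). None of the 49 passed, and the median D was -0.29. Ifit3 and Ifit3b are close copies, so their separate values are uncertain.

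Cell cycle and DNA replication genes had a median D of -0.04 over 52 tested, with 3 higher after anti-CTLA-4 and 5 higher after anti-PD-1 DANA at an unadjusted p under 0.05, near the background of 6.87% and 7.64%. The spindle checkpoint kinase gene Bub1b had D = 10.92 ± 3.09 (SE), and Birc5, the gene of survivin, D = -5.47 ± 1.88 (SE), so mitotic genes stood on both sides and none passed. Among 19 p53 and damage response genes, 12 were above 0 with a median of 0.57, and 0 passed. At an unadjusted p under 0.05, 1 was higher after anti-CTLA-4 and 2 higher after anti-PD-1 DANA, beside the same background. The 1 was Gadd45a, with D = 5.44 ± 2.26 (SE). The 2 were Phlda3, with D = -8.315 ± 2.34 (SE) and an adjusted p of 0.0533, and Cdkn1a. Cdkn1a, the gene of the cell cycle inhibitor p21, had D = -7.50 ± 3.31 (SE). The 74 nuclear genes of oxidative phosphorylation had a median D of -0.39 with 17 above 0, and none had an unadjusted p under 0.05. Glycolysis genes had a median of -0.27 over 21, with Pfkm at 7.30 ± 2.43 and Ldhb at -5.59 ± 1.97 (SE). Genes of MHC class I presentation had a median of -0.11, with 4 of 20 above 0, and on the scale of library size 11 were above 0 and the median was 0.02.

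Genes measured with small error were also read apart from the rest. A model error under 1 was reached by 1244 genes, whose median D was -0.08. Few reads in 1 arm raise this error, so the choice tends to leave out genes with a large D. Of the 1244 genes, 6 were higher and 21 lower after anti-CTLA-4 at an unadjusted p under 0.05. The shares over all tested genes were 6.87% and 7.64%. Of the 1244 genes 0 passed, the smallest adjusted p being 0.0666 (Cd74). Given how they were chosen, these counts do not measure how alike the arms were. The median error over all tested genes was 1.92, and D ran from -12.08 to 11.63.

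Ribosomal protein genes were grouped by symbol after the values had been seen. Of 83 tested, 80 had a negative D, the median was -0.58, and 14 were higher after anti-PD-1 DANA at an unadjusted p under 0.05 against 0 after anti-CTLA-4, where the shares of all genes were 7.64% and 6.87%. On the scale of library size the median was -0.45 and 5 were above 0. Rps18, a component of the small subunit, was estimated at 455 RPKM after anti-CTLA-4 and 753 RPKM after anti-PD-1 DANA, with D = -0.86 ± 0.35 (SE). Rplp1, a stalk protein of the large subunit, stood at 2222 and 3374 RPKM with D = -0.74 ± 0.34 (SE). None of the 83 passed. Rn18s-rs5, a gene annotated as related to 18S ribosomal RNA, had D = -1.10 ± 0.40 (SE) and did not pass.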

How the data were processed

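RNA was measured in 12 libraries, 3 per arm, and the 6 single-antibody libraries were compared. Per the labels' protocols, CLC Genomics Workbench did the alignment and quantification. Per the submitters' processing notes, the genome build was GRCm38.p5. Program version, annotation and test: not given in the sources used here. Deposited were tables of each antibody against isotype. Per the file headers, each holds the larger of the 2 group means, the fold change both signed and as log2, and the authors' p-value, raw and with FDR and Bonferroni correction. That the deposited means are in RPKM was read from the values. Blank, untested genes were left out.

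D is the difference of the deposited log2 fold changes. Standard errors were implied by the deposited p-values, assuming a Wald test: equal variances of the group means were used for 10237 genes whose 3 errors lay within 5% of each other, and an upper bound for 7596. This planned test was two-sided, with Benjamini-Hochberg adjustment over all 48709 listed genes and a threshold of 0.05. The model error was added after the data had been seen. It fitted 1 negative binomial dispersion per gene to the 3 errors, with a median misfit of 0.0006% over 9950 genes. Estimated levels and reads come from that fit, and levels called means are the authors' own RPKM values.

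Whole reads per library were solved from means, exon lengths of GENCODE M21 (99.26% of genes matched by identifier) and library sizes, where chance allowed at most 0.05 solutions. Of the means tried, 67.4% were solved for anti-CTLA-4 and 69.1% for anti-PD-1 DANA, against 0.89% and 0.999% with lengths off by 1 base. Another 38 solutions that the fold changes contradicted were dropped. For 505 genes the exon length itself was searched. Limma 3.58.1 was run on log2(RPKM + 0.5) of the 3010 genes recovered in both arms. Python 3.11.15, numpy 2.4.6, scipy 1.17.1 and R 4.3.3 were used, and the test code was tested on simulated data, where it called some unchanged genes. Intervals and errors cover the spread between libraries of 1 pool.

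The members and the 30 gene lists (730 genes, 678 tested) were chosen with earlier results of these data known. The text names genes by this rule: called genes with a gene name that is neither a predicted locus nor a receptor segment, up to 12 with the largest D and 6 with the smallest p in each direction, called list members, 16 genes of checkpoint and effector biology whatever their test, and, where few were called, uncalled genes with the smallest p up to 6 per direction. A few genes that the rule or the lists hold are not reported here. Other named genes are examples from the lists or were chosen after their values were seen. Alternatives were other adjustments, error rules, scalings, level filters, pseudocounts, removal of genes resting on 1 library, and leaving out each library.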

Additional observations from a re-analysis of the deposited data

How the results depend on the processing

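The planned test called 0 genes. It called 3 when adjusted over the tested genes (2 higher after anti-CTLA-4), 21 with equal variances assumed for every gene (10 higher), 6 among the 6348 genes with a larger mean of 5 RPKM or more (3 higher) and 1 without genes that rest on 1 library. The count stayed at 0 with Bonferroni adjustment, the upper bound for every gene, library size scaling, median-centring, and limma with 2 other pseudocounts or a level of 1 RPKM or more. Among the 3010 genes with recovered reads in both arms, leaving out each library in turn gave 0 to 0 calls by limma. Between 26 and 50 of those genes had an unadjusted p under 0.05. The smallest adjusted p over these runs was 0.548, so their 0 calls do not show that the arms were alike. The model error called 7 genes over all listed genes and 120 over tested genes. Over tested genes this became 109 without genes resting on 1 library (55 higher after anti-CTLA-4), 109 with library size scaling (69 higher), 108 median-centred (66 higher), 83 with a fit error of the model up to 0.01 of the standard error and 123 with one up to 0.1. Apart from the smaller sets of genes adjusted over, the cause of these shifts was not tested. The median D of -0.08 was 0.048 with library size scaling and -0.023 at 5 RPKM or more, and the median log2 RPKM ratio of 0.09 was 0.054 where both means reached 5 RPKM.

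No paired analysis was possible because the tables carry no library columns and the recovered libraries cannot be tied to replicate numbers. Scarce transcripts were measured with large error, and the part of read depth in it was not tested: the median model error was 1.92 on the log2 scale, and 79.5% of the genes with reads in their higher arm and an unadjusted p under 0.05 rested on 1 library.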
